A study of Mus musculus with 29 samples.

Results

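The Toll-like receptors Tlr1, Tlr2, Tlr3, Tlr4, Tlr6, Tlr7, Tlr8, Tlr9 and Tlr13 and their shared adaptor Myd88 were followed through 3 RNA-seq experiments in mice. These 10 genes were taken by symbol, and all 10 were found among the 48709 Ensembl identifiers of each count table. The question was how strongly each receptor was expressed in prefrontal cortex (PFC), cultured microglia and neuron-microglia co-cultures, and whether its level differed after inhibition of miR-99b-5p. Anti-miR-99b, the inhibitor, was an oligonucleotide with locked nucleic acid bases, delivered in lipid nanoparticles, and the control was a scrambled oligonucleotide of the same kind (sc-control).

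The PFC libraries came from male C57BL/6J mice of 3 months, of which 3 received anti-miR-99b and 3 received sc-control on both sides of the brain, with tissue taken 5 days later. Primary microglia were shaken off mixed glial cultures of CD1 pups at postnatal day 1 and treated for 2 days (4 anti-miR-99b and 4 sc-control libraries). For the co-cultures, microglia treated in this way were added to CD1 cortical neurons from embryonic day 17.5. RNA was taken from the whole co-culture after 48 h (7 anti-miR-99b and 8 sc-control libraries). No genotype differed within an experiment, and the strain, age and preparation of the PFC libraries differed from those of the cultures. Whether the cultures of a group were independent preparations is not given in the sources used here, so the p-values may measure only technical spread.

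Toll-like receptors recognise molecules that microbes carry or that damaged cells release. Tlr1, Tlr2, Tlr4 and Tlr6 sit at the cell surface and bind lipopeptides or, for Tlr4, lipopolysaccharide, whereas Tlr3, Tlr7, Tlr8, Tlr9 and Tlr13 bind nucleic acids in endosomes. All of them except Tlr3 signal through Myd88, which leads by way of kinases to NF-kB and IRF factors and to cytokine and chemokine genes. In the brain, microglia are the main cells that carry most of these receptors.

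The target of the inhibitor and the 2 other mouse miRNAs with the same seed are given first, because the inhibitor was directed at this sequence. Capitals mark the seed (bases 2 to 8), and the sequences and positions are those of RefSeq (GRCm38.p6), with 3 of 3 names matched.
mmu-miR-99b-5p, chr17:17830194-17830215, plus strand: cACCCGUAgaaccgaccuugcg
mmu-miR-99a-5p, chr16:77598940-77598961, plus strand: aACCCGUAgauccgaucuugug
mmu-miR-100-5p, chr9:41531437-41531458, plus strand: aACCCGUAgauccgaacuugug
Against mmu-miR-99b-5p, both mmu-miR-99a-5p and mmu-miR-100-5p differ at 4 of 22 positions outside the seed. The 7-base complement of this seed was not found in an annotated 3' UTR (GENCODE M21, GRCm38) of any of the 10 genes, and neither was its 6-base core. Over 21016 genes with an annotated 3' UTR, 1.19% held the 7-base match and 5.83% the 6-base core. The longest 3' UTR of a member ranged from 58 bases for Tlr8 to 1496 bases for Tlr3, so the search covered little sequence for several of them. A missing match says only that these letters are not in these UTRs.

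In the annotation (GRCm38), Tlr1 lies on chr5:64924679-64933563 and its neighbour Tlr6 on chr5:64952031-64960097, both on the minus strand. Tlr7 (chrX:167304929-167330558) and Tlr8 (chrX:167242696-167264329) are neighbours too, and Tlr13 lies on the same chromosome at chrX:106143204-106160493. Tlr2 lies on chr3:83836272-83841767, Tlr3 on chr8:45395665-45411080, Tlr4 on chr4:66827584-66930284, Tlr9 on chr9:106222598-106226883 and Myd88 on chr9:119335934-119341411. Lengths used below are those of all exons of a gene joined, UTRs included.

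Some of these counts are less certain than others. Tlr1 and Tlr6 transcripts shared 454 stretches of 50 bases, the read length, which is 13.6% of the stretches of Tlr1 and 12.3% of those of Tlr6. Reads there cannot be told apart, and no other pair of members shared any. Tlr3 overlaps the antisense gene Gm45542 by 381 exonic bases, and Myd88 overlaps Acaa1a, a peroxisomal thiolase on the other strand, by 290 exonic bases. The library kit does not mark strand. Gm45542 had at most 0.011 CPM on average in any group, whereas Acaa1a was more abundant than Myd88 in every group (58.4 ± 2.4 CPM in PFC sc-control, mean ± SD, n = 3). Slc22a14 overlaps Myd88 with 0 shared exonic bases and averaged at most 0.156 CPM in any group.

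Promoter sequences are shown for Tlr2, Tlr9 and Myd88, the 3 members with the lowest unadjusted p or with groups that did not overlap in the PFC. Each runs 5' to 3' on the gene's strand from 250 bases before to 50 bases after a RefSeq start site, and capitals mark matches to the NF-kB consensus (Tlr2), to the PU.1 motif GAGGAAGT (Tlr9, read on the other strand) and to the interferon response motif GAAANNGAAA (Myd88). For Tlr2 and Myd88 this start lies inside the gene span given above.
Tlr2, chr3:83841559-83841858, minus strand: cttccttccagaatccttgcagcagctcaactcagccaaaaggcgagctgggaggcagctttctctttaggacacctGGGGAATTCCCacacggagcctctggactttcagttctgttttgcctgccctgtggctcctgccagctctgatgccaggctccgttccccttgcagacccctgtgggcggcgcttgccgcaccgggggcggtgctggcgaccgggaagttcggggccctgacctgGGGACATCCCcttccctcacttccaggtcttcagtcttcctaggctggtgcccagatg
Tlr9, chr9:106222348-106222647, plus strand: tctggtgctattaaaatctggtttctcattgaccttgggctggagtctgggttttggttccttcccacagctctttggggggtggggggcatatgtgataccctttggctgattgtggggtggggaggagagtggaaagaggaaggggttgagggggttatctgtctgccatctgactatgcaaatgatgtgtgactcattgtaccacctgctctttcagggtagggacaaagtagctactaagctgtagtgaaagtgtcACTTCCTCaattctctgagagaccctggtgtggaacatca
Myd88, chr9:119339969-119340268, minus strand: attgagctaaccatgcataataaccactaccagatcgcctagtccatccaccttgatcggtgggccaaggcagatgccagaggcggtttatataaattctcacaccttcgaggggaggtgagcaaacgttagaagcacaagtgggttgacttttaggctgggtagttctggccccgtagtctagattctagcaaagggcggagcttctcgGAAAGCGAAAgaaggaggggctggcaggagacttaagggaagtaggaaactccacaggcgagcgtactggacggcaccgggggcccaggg
Of the 10 members 8 had a promoter entry (10 entries in all), and Tlr4 and Tlr7 had none. Both strands were searched, and overlapping matches were kept. NF-kB matches stood 173, 172 and 8 bases before the Tlr2 start and 211 bases before that of Tlr3. The PU.1 motif stood 23 bases before 1 of the 2 listed Tlr1 starts, and at position 11 after the start of Tlr9. The GAAANNGAAA motif stood 40 bases before the start of Myd88, and 2 overlapping matches stood 116 and 110 bases before 1 of the 2 listed Tlr6 starts. Of all 32851 promoters of this length, 8.46% held the NF-kB consensus, 3.2% the PU.1 motif and 3.44% GAAANNGAAA. A match is a string of letters and not a shown binding site.

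Libraries held 21324200 to 37901100 counted reads (rounded to 6 digits), so that 1 read was worth 0.0263 to 0.0472 CPM (the read count of a gene scaled to a common library total, with TMM factors set within each experiment). Summed over 8 myeloid genes (such as Aif1, Csf1r and Tyrobp), the level was 9685 to 10175 CPM in the microglia, 304 to 422 CPM in the PFC and 92.5 to 119.6 CPM in the co-cultures. Neuronal markers (10 genes) summed to 9346 to 10163 CPM in the PFC, 8073 to 8390 CPM in the co-cultures and 130 to 145 CPM in the microglia. The myeloid and neuronal markers thus matched the labels. Astrocyte markers (8 genes) summed to 4208 to 4936 CPM in the PFC, 2563 to 2776 CPM in the co-cultures and 281 to 329 CPM in the microglia. For oligodendrocyte markers (7 genes) the sums were 4410 to 5690, 278 to 337 and 275 to 315 CPM. In PFC and co-culture libraries, fewer microglia and less receptor RNA per microglial cell cannot be told apart.

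Cultured microglia expressed every member, and Tlr7, Tlr2 and Tlr13 led. Per length, Tlr7, a receptor for single-stranded RNA, stood at 127 ± 1.4 RPKM (CPM per kilobase of exon, sc-control, n = 4), Tlr2, the lipopeptide receptor, at 121 ± 6.2 RPKM and Tlr13, which detects bacterial ribosomal RNA in mice, at 105 ± 1.7 RPKM. Tlr7 and Tlr2 overlapped in range, and Tlr13 lay below both in 4 of 4 libraries. A middle group followed, with Tlr8 at 28.3 ± 1.4 RPKM, Myd88 at 24.8 ± 1.6 RPKM and Tlr4 at 20.2 ± 0.34 RPKM.

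The partners of Tlr2 and the receptor for CpG DNA were lower. Tlr1 (17.0 ± 1.0 RPKM) and Tlr9 (16.8 ± 0.59 RPKM) could not be ordered, since each was higher in 2 of the 4 microglia libraries. Tlr6 had 8.79 ± 0.12 RPKM, and Tlr3, the receptor for double-stranded RNA, was the lowest member at 5.71 ± 0.096 RPKM in these cells. The highest and lowest member means differed 22.2-fold.

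In the co-cultures, where microglia are a small part of the RNA, the order was different. Tlr2 (2.53 ± 0.33 RPKM, sc-control, n = 8), Tlr1 (2.27 ± 0.11 RPKM) and Myd88 (1.97 ± 0.19 RPKM) were highest, and the ranges of neighbours in this order overlapped. Tlr3 followed with 1.41 ± 0.16 RPKM and was above Tlr7 (1.02 ± 0.11 RPKM) in 8 of 8 libraries. Tlr13 had 0.85 ± 0.11 RPKM. The remaining receptors lay between 0.206 RPKM (Tlr4) and 0.406 RPKM (Tlr9), and each step among Tlr9, Tlr6, Tlr8 and Tlr4 was within the range of its neighbour.

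In the PFC, Myd88 led with 2.86 ± 0.16 RPKM (sc-control, n = 3) and Tlr3 was the highest receptor at 2.38 ± 0.46 RPKM, with overlapping ranges. Tlr7 (1.14 ± 0.36 RPKM), Tlr2 (1.12 ± 0.48 RPKM) and Tlr13 (0.825 ± 0.22 RPKM) overlapped one after the other, as did Tlr13 and Tlr9 (0.677 ± 0.074 RPKM). Tlr1, Tlr4 and Tlr6 averaged 0.221 to 0.335 RPKM. Tlr8 was close to the limit of detection, with 11, 2 and 15 reads in sc-control replicates 2, 3 and 4 and 6, 4 and 11 reads in anti-miR-99b replicates 1, 2 and 3.

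**Figure D1:**
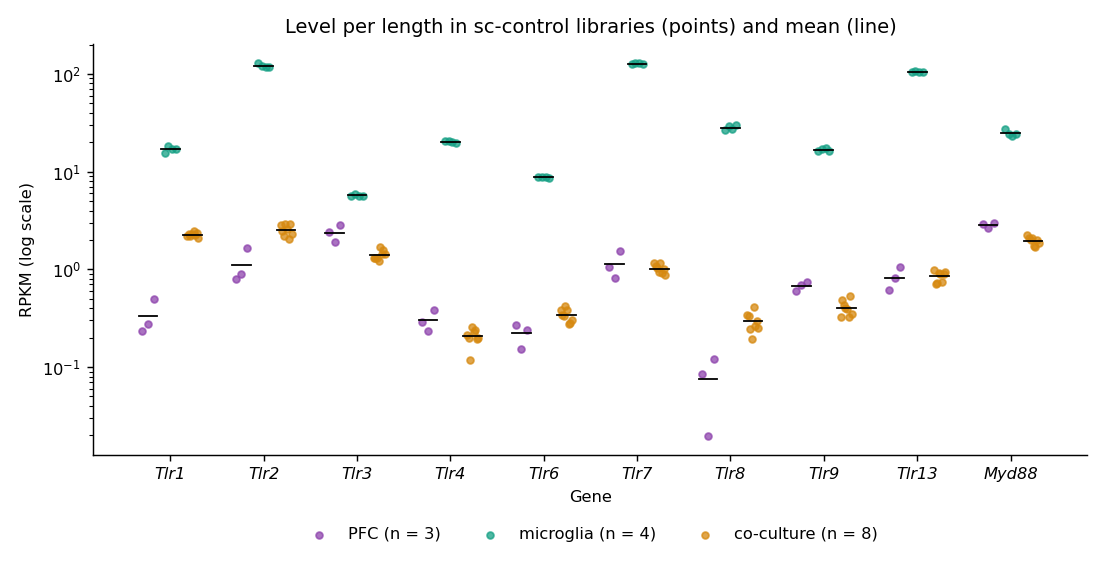
Level of each member per exon length (RPKM, log scale) in every sc-control library of the PFC (3), the microglia (4) and the co-cultures (8), with the mean as a line. Tlr7, Tlr2 and Tlr13 lead in microglia (105 to 127 RPKM), whereas Tlr3 is lowest there and the highest receptor in the PFC; levels were scaled within each experiment.

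Taken as a share of the summed RPKM of the 9 receptors, the makeup of the set differed by experiment. Tlr3 made up 34.01 ± 3.4% in the PFC and 15.2 ± 1.5% in the co-cultures, but 1.27 ± 0.018% in microglia. Tlr1 made up 24.4 ± 1.2% in the co-cultures, 4.63 ± 0.89% in the PFC and 3.78 ± 0.24% in microglia. The 5 nucleic acid receptors together took 72.5 ± 3.0% in the PFC, 62.9 ± 0.95% in microglia and 42.7 ± 1.9% in the co-cultures. Each of these shares had ranges that did not overlap between the co-cultures and either other experiment, and the shares are ratios within a library, so they do not depend on the scaling between experiments.

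**Figure D2:**
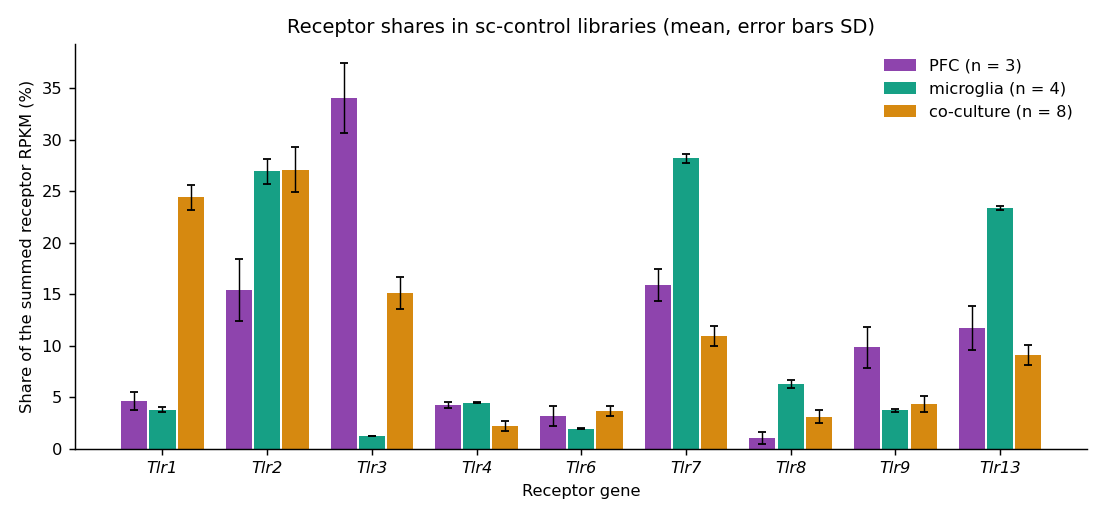
Share of each receptor in the summed RPKM of the 9 receptors in sc-control libraries (bars mean, error bars SD; PFC n = 3, microglia n = 4, co-culture n = 8). Tlr3 takes 34.01% in the PFC and 1.27% in microglia, and Tlr1 takes 24.4% in the co-cultures.

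Tlr1 and Tlr6, which both pair with Tlr2, did not keep a fixed ratio to each other. Per length, Tlr1 was 6.82 ± 1.0 times Tlr6 in co-culture sc-control (lowest 5.45, highest 8.38), 1.94 ± 0.13 times in microglia (1.77 to 2.08) and 1.57 ± 0.62 times in the PFC (0.866 to 2.05). The anti-miR-99b co-cultures gave 6.02 ± 0.85 (n = 7). The ratio of the co-cultures lay above that of every other library in both groups. The 2 genes with the pattern nearest to that of Tlr1 over the 29 libraries were Ncapg, a condensin subunit, and Birc5 (survivin), each with a root mean square difference of 0.18 in log2(CPM + 0.5) centred per gene. They were Lcp1 and Gpr65 for Tlr2, Lipa and Rbm47 for Tlr4, and Creg1 and Aif1 for Tlr6.

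The other nearest patterns were Tmem243 and Rnf13 for Tlr3, Tmem106a and Rab32 for Tlr7, Ch25h and Hk3 for Tlr8, Gpsm3 and Myo1e for Tlr9, Cd68 and Rab32 for Tlr13, and Nfkb1 and Ifngr1 for Myd88. Differences ranged from 0.11 for Tmem243 to 0.27 for Hk3, among 18953 other genes. Most of this likeness is the contrast between the 3 experiments, which these libraries share.

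Levels were next set against the mean of the 8 myeloid genes in the same library, as log2(CPM + 0.5), in sc-control libraries. Relative to myeloid RNA, Tlr3, Myd88, Tlr9 and Tlr6 differed by -3.93, -2.14, -0.80 and -0.51 on the log2 scale in microglia against the PFC, and Tlr2, Tlr4, Tlr7 and Tlr13 were 1.45, 0.54, 1.52 and 1.66 higher, with no overlap (exact permutation test, two-sided, p = 0.0286 each, the smallest that 4 against 3 allows). Levels were also set against 8 homeostatic microglia genes (such as P2ry12 and Tmem119). Tlr2, Tlr4, Tlr7 and Tlr13 were then 5.35, 4.43, 5.42 and 5.56 higher in microglia. Tlr3 differed by -0.03, and Myd88, Tlr9 and Tlr6 were 1.76, 3.10 and 3.39 higher, so the 4 lower ones did not hold. Changing the reference shifts every member by the same amount, here upwards. Members already higher could only stay higher, so this is not a separate check of their direction. Tlr8 is not compared with the PFC here, since its PFC level is below the pseudocount and sets the difference. Tlr6 averaged 0.824 CPM in PFC sc-control, near the pseudocount, which lifts its PFC level, so the sign of its -0.51 is uncertain.

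Between co-cultures and microglia, Tlr3 (4.21), Tlr1 (3.33), Myd88 (2.63) and Tlr6 (1.91) were higher on the log2 scale in the co-cultures, and Tlr7 (-0.65) and Tlr13 (-0.62) were lower, relative to the myeloid genes (exact permutation p = 0.00202 each, 8 against 4 libraries). With the homeostatic reference these 6 differences were 2.52, 1.65, 0.94, 0.23, -2.33 and -2.30. That reference lowers every member by the same amount here. Tlr7 and Tlr13 could therefore only stay lower, which is not a separate check of their direction. For Tlr6 the ranges overlapped with that reference (exact permutation p = 0.0121). In co-culture sc-control, its genes P2ry12, P2ry13, Tmem119, Gpr34 and Siglech averaged 0.02 to 0.61 CPM. These lie near or below the pseudocount of 0.5, which partly sets this reference in the co-cultures. Tlr2 and Tlr9 turned direction between the references. With the myeloid genes, Tlr4 (0.04) and Tlr8 (0.10) had overlapping ranges (exact permutation p = 0.739 and 0.442), and both were lower with the homeostatic reference. Over the 3 pairs of experiments 30 such comparisons were made. Tissue, strain, age, preparation and the share of other cell types differed together between experiments and cannot be told apart.

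Anti-miR-99b left the members' levels in cultured microglia close to those of sc-control. None of the 10 members passed the threshold (adjusted p under 0.1 and log2FC beyond 0.1, edgeR quasi-likelihood test), against 0.435% of 14953 genes called higher and 0.0535% called lower, and none had an unadjusted p under 0.05 by edgeR or DESeq2. The 95% confidence intervals of all 10 log2FC lay between -0.09 and 0.16, so larger differences were outside the intervals. The median log2FC of the members was 0.03 and that of all genes 0.0025.

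The most abundant receptor, Tlr7, had 513 to 524 CPM in the 4 sc-control libraries and 514 to 525 CPM in the 4 anti-miR-99b libraries. Its log2FC was 0.0044 ± 0.025 (SE). Tlr13 had a log2FC of 0.0095 ± 0.026 and Tlr4 one of -0.01 ± 0.029. These 3 genes had 2400 or more reads in each library, and the treatment groups lay on top of each other.

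Myd88 and Tlr2 were the members with the largest differences in microglia. Myd88 had 69.6, 62.2, 60.3 and 62.9 CPM in sc-control replicates 2, 3, 4 and 6 and 66.4, 66.0, 67.9 and 68.0 CPM in anti-miR-99b replicates 1, 3, 4 and 5. All treated libraries were above 3 of the 4 controls and below sc-control replicate 2. The log2FC was 0.08 ± 0.038, with an adjusted p of 0.792 (edgeR) and an exact permutation p of 0.171.

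Tlr2 had the same arrangement, with 394, 359.6, 355 and 354 CPM in sc-control and 375, 388, 374 and 379.8 CPM after anti-miR-99b, and a log2FC of 0.05 ± 0.032 (adjusted p = 0.863, edgeR). Without sc-control replicate 2, Myd88 passed the threshold (log2FC 0.12, adjusted p = 0.0447, edgeR), and Tlr2 had an adjusted p of 0.037 (edgeR) with a log2FC of 0.09, under the limit of 0.1. In the same fit 5 of the other pathway genes passed, against 3 with all libraries. Acaa1a, whose exons overlap those of Myd88, had a log2FC of 0.06 in the microglia (adjusted p = 0.87, edgeR), and its part in the Myd88 value was not tested.

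In the PFC, none of the members passed the threshold (adjusted p under 0.1 and log2FC beyond 0.2). Of all 17364 genes tested, 0.0864% were called higher and 0% lower. Tlr8 had too few reads to be tested. Of the 9 members tested, 8 had a log2FC above 0, with a median of 0.34, against 50.6% of all genes above 0 and a median of 0.0025. Tlr2 and Tlr9 had an unadjusted p under 0.05 (2 of 9 members) by edgeR, and DESeq2 called 0 members with 2 at an unadjusted p under 0.05. With 3 mice against 3, the smallest p of an exact permutation test is 0.1.

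Tlr2 had 2.37, 2.68 and 5.04 CPM in sc-control replicates 2, 3 and 4, and 5.35, 6.08 and 4.83 CPM in anti-miR-99b replicates 1, 2 and 3. Sc-control replicates 2 and 3 were low, and sc-control replicate 4 lay within the range of the treated mice. The log2FC was 0.68 ± 0.25 (SE; 95% interval 0.12 to 1.24), with an adjusted p of 0.639 (edgeR) and an exact permutation p of 0.2. Without sc-control replicate 4, the log2FC was 1.10 and the adjusted p 0.0224 (edgeR), past the threshold.

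Tlr9 had 2.07, 2.43 and 2.56 CPM in sc-control and 4.98, 3.07 and 3.26 CPM after anti-miR-99b. The groups did not overlap, and anti-miR-99b replicate 1 stood above the rest. Its log2FC was 0.67 ± 0.20 (95% interval 0.22 to 1.13; adjusted p = 0.518, edgeR; exact permutation p = 0.1). Without anti-miR-99b replicate 1 the log2FC was 0.43, which is over 1.5 times smaller.

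Myd88 did not overlap either, with 7.46, 6.91 and 7.72 CPM in sc-control and 9.47, 8.43 and 7.83 CPM in the treated mice (log2FC 0.22 ± 0.11, adjusted p = 0.66, edgeR). These 2 of the 9 members tested stand beside 7.52% of all genes whose treated mice all lay above the controls and 5.81% whose treated mice all lay below. Acaa1a had a log2FC of 0.12 in the PFC (adjusted p = 0.671, edgeR).

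The remaining PFC members had wide intervals. The log2FC was 0.37 for Tlr1, 0.39 for Tlr6, 0.34 for Tlr7 and 0.30 for Tlr13, and Tlr3 (0.07) and Tlr4 (-0.07) were near 0. Single mice moved these values by over 1.5 times. Without sc-control replicate 4 the log2FC was 0.78 for Tlr1, 0.61 for Tlr7 and 0.53 for Tlr13. Without sc-control replicate 3 it was 0.20 for Tlr6 and 0.17 for Tlr7. Without sc-control replicate 2 it was 0.15 for Tlr1 and 0.12 for Tlr13, and without anti-miR-99b replicate 2 it was 0.20 for Tlr1. None of these 4 genes was called in any of these fits. In Tlr1, Tlr7 and Tlr13, each treated mouse was above sc-control replicates 2 and 3, and sc-control replicate 4 lay above at least 1 treated mouse. That mouse was the highest of the sc-control group in 9 of the 10 members.

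**Figure D3:**
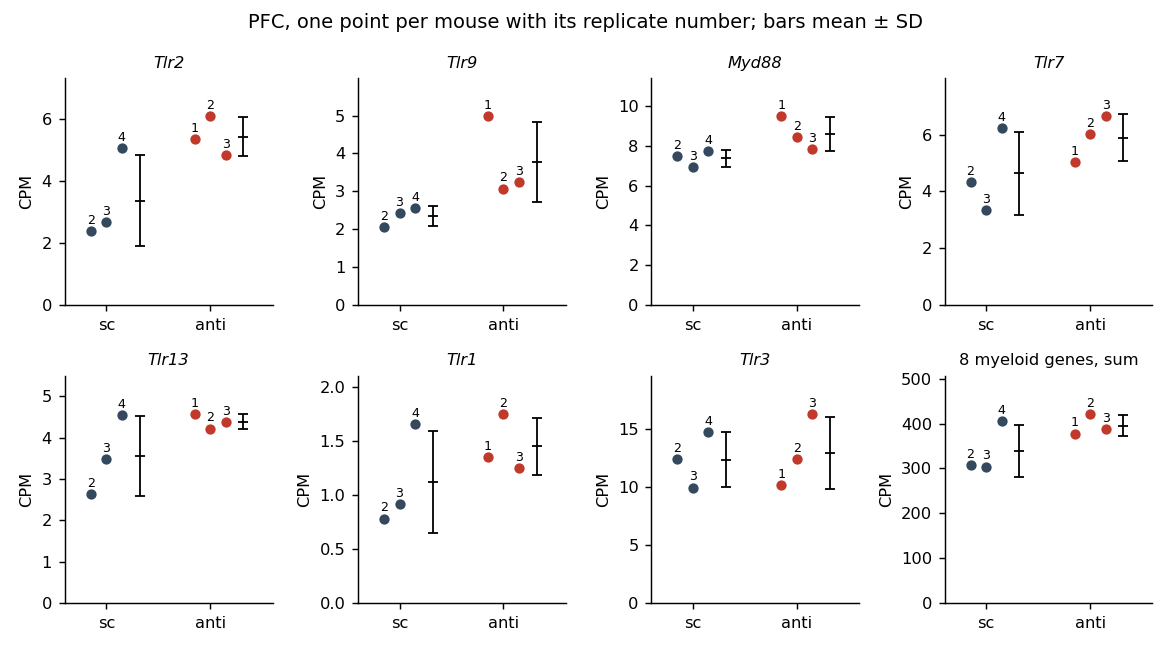
CPM of 7 members and summed CPM of 8 myeloid genes in each PFC mouse, with replicate numbers beside the points and mean ± SD to the right (n = 3 per group; axes start at 0). Sc-control replicate 4 is level with the treated mice in Tlr2, Tlr7, Tlr13 and the myeloid genes.

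Myeloid genes were measured in the same mice. All 8 of the reference had a log2FC above 0 in the PFC (median 0.29), none was called, and their summed level was 307, 304 and 406 CPM in sc-control replicates 2, 3 and 4 and 378, 422 and 388 CPM in the treated mice. Set against them, the treated and control mice differed by 0.34 for Tlr2 (exact permutation p = 0.2), 0.23 for Tlr9 (p = 0.5 in the exact permutation test) and -0.13 for Myd88 (exact permutation p = 0.5). The other differences were -0.03 for Tlr1, -0.27 for Tlr3, -0.39 for Tlr4, -0.05 for Tlr6, 0.01 for Tlr7 and -0.03 for Tlr13. Tlr8 differed by -0.35, which the pseudocount sets, since the level of Tlr8 lies below it. Of the 10 members, 0 had an exact p under 0.05, which 3 mice against 3 cannot reach. Of 8 blood leukocyte markers 5 were tested and 0 called, and the 5 had a log2FC above 0 with a median of 0.70, from 0.15 for Ccr2 to 1.34 for Plac8. None of the 8 was at 0 in all libraries, and their summed level was 2.71 to 5.65 CPM in sc-control and 5.35 to 7.47 CPM after anti-miR-99b. Their part in the members' values was not tested.

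In the co-cultures, 10 of 10 members had a log2FC above 0 (median 0.08, against 0.0025 for all genes) and none passed the threshold (adjusted p under 0.05 and log2FC beyond 0.1) by edgeR, against 0.846% of 16193 genes called higher and 0.556% called lower. Tlr7 and Tlr13 had an unadjusted p under 0.05 by edgeR. DESeq2 called 1 member, Tlr7 (adjusted p = 0.0445), with 2 members at an unadjusted p under 0.05. No member had groups that did not overlap in the co-cultures, where 0.303% of genes lay entirely higher and 0.278% entirely lower, nor in the microglia, where these shares were 1.65% and 1.8%.

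Tlr7 came closest, with 3.56, 4.14 and 4.797 CPM (lowest, median and highest) in sc-control and 4.36, 5.16 and 5.71 CPM after anti-miR-99b. Of the 7 treated libraries 5 were above every control, and 7 were above the median control. The log2FC was 0.28 ± 0.074 (95% interval 0.13 to 0.43), with an adjusted p of 0.0577 (edgeR) and an exact permutation p of 0.00357, 1 of 30 such tests over members and experiments. With the sequencing lane as a block the adjusted p was 0.0804 (edgeR).

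Leaving out anti-miR-99b replicate 12, sc-control replicate 1 or sc-control replicate 6 brought Tlr7 past the threshold, with adjusted p-values of 0.0255, 0.0297 and 0.047 (edgeR), as did keeping genes with low counts (0.0497). Over all 22 alternatives its log2FC ranged from 0.25 to 0.31 and its adjusted p from 0.0255 to 0.204.

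Tlr13 and Tlr6 followed. Tlr13 had 3.03, 3.86 and 4.22 CPM in sc-control and 3.55, 4.25 and 5.53 CPM after anti-miR-99b (log2FC 0.21 ± 0.091, adjusted p = 0.297, edgeR; exact permutation p = 0.0437). For Tlr6 the values were 1.03, 1.25 and 1.57 CPM and 1.32, 1.37 and 1.68 CPM, from 27 to 48 reads a library (log2FC 0.23 ± 0.11, adjusted p = 0.401, edgeR; exact permutation p = 0.037). In both genes the ranges overlapped.

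Tlr2 had a log2FC of 0.15 ± 0.078 (adjusted p = 0.401, edgeR), and the 6 other members lay between 0.0064 for Tlr8 and 0.08 for Tlr4. Myd88, the shared adaptor, had 5.07 ± 0.49 CPM in sc-control and 5.10 ± 0.65 CPM after anti-miR-99b (log2FC 0.0083 ± 0.077; 95% interval -0.15 to 0.17). Tlr1 had a like mean in both groups and a wider spread after anti-miR-99b (7.95 ± 1.2 CPM, n = 7) than in sc-control (7.60 ± 0.38 CPM, n = 8). Of the treated libraries, 4 were above every control (8.45 to 9.57 CPM) and 3 below every control (6.43 to 6.96 CPM), so that none lay within the control range. Of the 3 low libraries 1 was sequenced on lane 5 and 2 on lane 7, and lane 7 also held the highest.

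**Figure D4:**
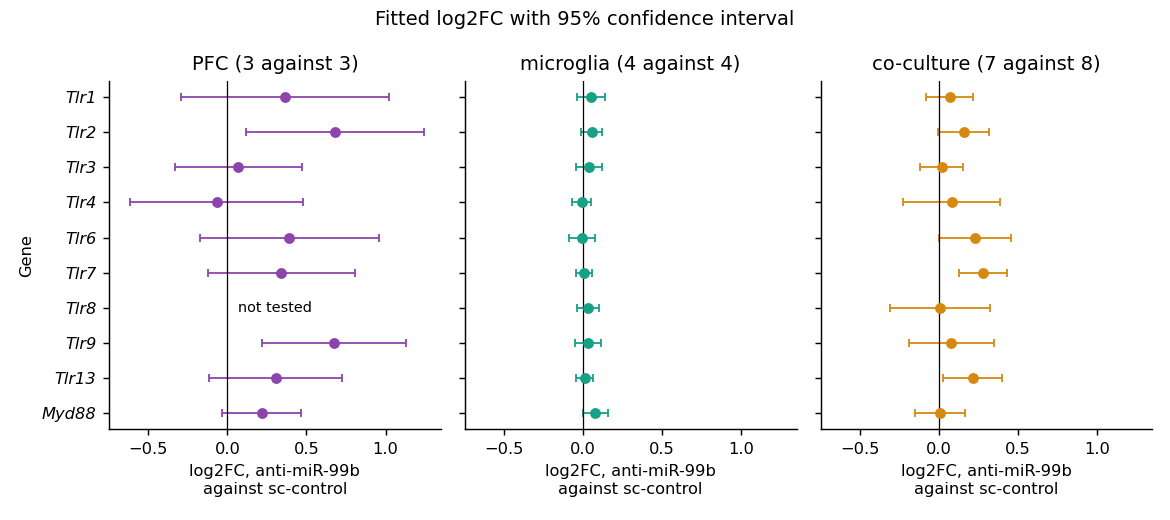
Fitted log2FC of each member (edgeR, points) with its 95% confidence interval (bars) for anti-miR-99b against sc-control in each of the 3 experiments. Intervals are narrow around 0 in microglia (-0.09 to 0.16), wide in the PFC (-0.61 to 1.24), and exclude 0 for Tlr2 and Tlr9 in the PFC and for Tlr7 and Tlr13 in the co-cultures.

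The mean log2(CPM + 0.5) of the 8 myeloid genes was 0.12 higher in the treated co-cultures (exact permutation p = 0.0211). Of the 8 genes 7 had a log2FC above 0, with Ptprc at 0.00014, and Itgam had -0.24 (adjusted p = 0.385, edgeR). Csf1r (log2FC 0.34), the receptor for CSF1, and Tyrobp (0.37), a signalling adaptor, were called among the 8, against 0.846% of all genes called higher. The summed level of the 8 was 92.5 to 115.8 CPM in sc-control and 103.6 to 119.6 CPM after anti-miR-99b. Relative to these genes, Tlr7 was 0.13 higher on the log2 scale after anti-miR-99b (exact permutation p = 0.0351) and Myd88 differed by -0.12 (exact permutation p = 0.0449). These were 2 of 10 members at an exact p under 0.05, and the lowest exact p of a member in the microglia was 0.171 on the same measure.

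Of the other genes of the pathway, 51 were tested in the co-cultures, of which 8 were called higher and 0 lower, against 0.846% and 0.556% of all genes. Their median log2FC was 0.07, and 41 had a log2FC above 0. Of the 8 called, 6 belong to the 12 tested targets of the pathway, of which 6 did not overlap between groups. Of all genes, 0.303% had every treated library above the controls. The lists were chosen with earlier results of these data known, so these counts are not an independent test. Cd14, the co-receptor that hands lipopolysaccharide to Tlr4, rose from 5.44, 6.57 and 7.18 CPM (lowest, median and highest, sc-control) to 7.74, 8.93 and 10.6 CPM (log2FC 0.50 ± 0.069, adjusted p = 1.6e-04, edgeR). Ikbke, a kinase that activates IRF factors, rose by a log2FC of 0.33 ± 0.056 (adjusted p = 0.00202, edgeR). The pathway genes were not set against the myeloid genes, whose mean was 0.12 higher on the log2 scale in the treated co-cultures. The part of myeloid RNA in the pathway values was not tested. Of 7 homeostatic microglia genes tested 1 was called, Cx3cr1 (log2FC 0.39, adjusted p = 0.0107, edgeR).

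Among the targets, the chemokine Ccl5 rose from 4.25, 4.82 and 5.55 CPM to 7.27, 8.26 and 10.0 CPM, a log2FC of 0.79 ± 0.067 (adjusted p = 1.05e-07, edgeR). Ccl3, another chemokine, had a log2FC of 0.67 ± 0.069 and Saa3, an acute phase protein, one of 0.75 ± 0.088. The lowest treated library was above the highest control for each of these 3 genes. The other 3 targets called were Acod1, Ccl4 and Tnf, named here after their values were seen. None of the 13 adaptors and kinases tested and none of the 4 inhibitors tested was called. Traf3, an adaptor named here after its values were seen, had an adjusted p of 0.0356 (edgeR) and a log2FC of -0.09, under the limit of 0.1, with all treated libraries below the controls (111 ± 3.0 against 118 ± 1.8 CPM).

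**Figure D5:**
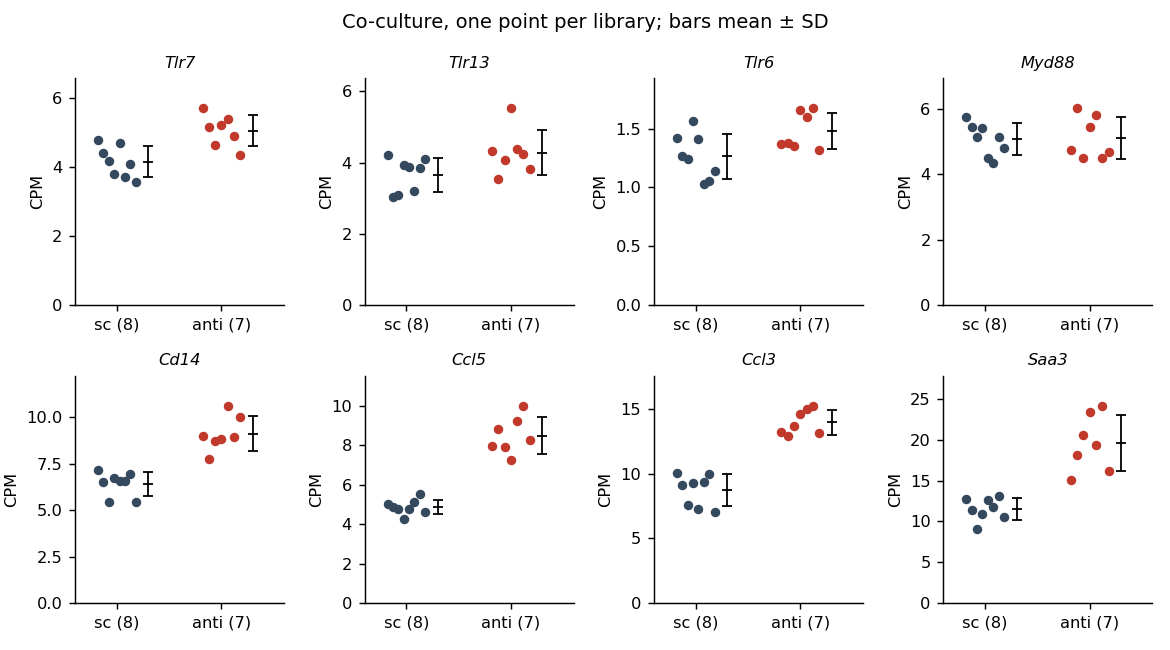
CPM of 4 members (top) and of Cd14, Ccl5, Ccl3 and Saa3 (bottom) in each co-culture library, with mean ± SD to the right (sc-control n = 8, anti-miR-99b n = 7; axes start at 0). The groups overlap in all 4 members and separate in the 4 genes below.

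In the microglia 3 of 53 pathway genes tested were called, all higher, against 0.435% of all genes called higher and 0.0535% called lower. Irf7, a transcription factor of the interferon arm, had 42.5, 36.01, 32.7 and 26.2 CPM in sc-control and 61.2, 41.2, 52.3 and 58.1 CPM after anti-miR-99b (log2FC 0.65 ± 0.11, adjusted p = 0.0106, edgeR), and the groups overlapped by 1 library. Acod1, which makes itaconate, rose by a log2FC of 0.21 ± 0.043 (adjusted p = 0.0282, edgeR) and the chemokine Cxcl10 by 0.38 ± 0.083 (adjusted p = 0.0421, edgeR). Leaving out 1 library gave 0 to 5 calls. None was left without sc-control replicate 4 or without anti-miR-99b replicate 5, 1 without sc-control replicate 6 or anti-miR-99b replicate 1 or 4, and 5 without sc-control replicate 2.

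In the PFC 0 of 53 pathway genes passed, with a median log2FC of 0.12 and 38 above 0. Irf7 and Cxcl10, called in the microglia, had PFC log2FC of 1.07 and 1.39 (adjusted p = 0.286 and 0.342, edgeR). The treated mice all lay above the controls in these 2 genes, as they did in 7.52% of all genes. With lane as a block 2 pathway genes were called. Without sc-control replicate 4 the count was 6, DESeq2 called 3, and with no filter on low counts it was 6. Tlr5, Tlr11 and Tlr12, receptors for bacterial flagellin or for profilin, were not called in any experiment, and the PFC fit held 2 of the 3, that of the microglia 1 and that of the co-cultures 0.

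The effect of anti-miR-99b was compared between experiments in a single fit of all 29 libraries. No member differed at an adjusted p under 0.05 in any of the 3 comparisons, against 0.0844% of 18963 genes between co-culture and microglia, 0.791% between co-culture and PFC and 0.469% between microglia and PFC. The lowest adjusted p was 0.102 for Tlr9, whose log2FC in microglia minus that in the PFC was -0.61 ± 0.17 (SE, edgeR). Next came Tlr2, with -0.60 ± 0.19 between the same experiments (adjusted p = 0.146, edgeR). Unadjusted p-values were under 0.05 for 3, 2 and 1 members between microglia and PFC, co-culture and PFC, and co-culture and microglia. Comparisons between experiments share libraries, so these counts are not independent.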

How the data were processed

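RNA-seq of 29 libraries was analysed. The authors deposited raw counts per gene, not normalized, in 1 table for each experiment. Per the study's methods and the submitters' processing notes, single reads of 50 bases from an unstranded polyA kit were demultiplexed with bcl2fastq 2.20.2, checked with FastQC 0.11.5, aligned to mm10 with STAR 2.5.2b and counted with featureCounts 1.5.1. The annotation release and the strand setting are not given in the sources used here. Symbols, exon lengths and UTRs were taken from GENCODE M21, and miRNA and promoter sequences from RefSeq (GRCm38.p6).

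Each experiment was fitted on its whole table with the quasi-likelihood test of edgeR 4.0.16 in R 4.3.3 (TMM factors, filterByExpr, Benjamini-Hochberg adjustment over all genes tested), and the difference in effect between experiments in 1 fit of all libraries. The script was tested on simulated data. The limits were an adjusted p under 0.1 with a log2FC beyond 0.2 for the PFC, 0.1 and 0.1 for the microglia, and 0.05 and 0.1 for the co-cultures. Exact permutation tests were two-sided, on CPM or on log2(CPM + 0.5) minus the mean of the 8 myeloid genes; their p-values are not adjusted. Not every gene of that list is reported here by name. Alternatives were DESeq2 1.42.0, other scaling factors and filters, blocks for lane and replicate number, and leaving out each library.

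All 10 members were described. Of each of the 6 pathway lists up to 3 genes per experiment past the threshold were named by lowest adjusted p. Also named were the 2 genes nearest to each member in pattern, and genes overlapping a member. The members and lists were chosen with earlier results of these data known.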

Additional observations from a re-analysis of the deposited data

Results flagged for a closer look

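Of 40 groups of 4 to 10 libraries tested for a library far from the others, 3 had one, and chance gives about 1 in 20. In the microglia, sc-control replicate 2 had 393.5 CPM of Tlr2, against 354 to 359.6 CPM in the other 3 controls. In the co-cultures, sc-control replicate 4 had 0.652 CPM of Tlr4, against 1.08 to 1.44 CPM in the other 7 controls. Also in the co-cultures, anti-miR-99b replicate 7 had 5.53 CPM of Tlr13, against 3.55 to 4.39 CPM in the other 6 treated libraries.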

How the results depend on the processing

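In the PFC the number of members called was 0 with all libraries, 2 with no filter on low counts (Tlr2, adjusted p = 0.0189, and Tlr9, 0.0467, edgeR) and 0 to 1 when 1 library was left out, the 1 being Tlr2 without sc-control replicate 4. The count of other pathway genes called in the PFC was 3 with DESeq2, 6 with no filter, 2 with lane as a block and 0 to 6 when 1 library was left out, with 6 without sc-control replicate 4. In the microglia leaving out 1 library gave 0 to 1 members (Myd88 without sc-control replicate 2) and 0 to 5 other pathway genes. In the co-cultures 1 member, Tlr7, was called with DESeq2, with no filter and at an adjusted p under 0.1, and 0 to 1 when 1 library was left out (anti-miR-99b replicate 12, sc-control replicate 1 or sc-control replicate 6). The cause of these shifts was not tested.

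Whether replicate numbers shared by the groups pair the libraries is not given in the sources used here. The correlations of same-numbered libraries were 0.0476 and -0.285 in the PFC, -0.0505 and -0.0381 in the microglia, and -0.0145 to 0.0469 in the co-cultures. These are too few to decide on pairing. The replicate block keeps 4 PFC libraries and so also leaves out sc-control replicate 4. It called 2 members (Tlr2 and Tlr7, the latter at an adjusted p of 0.0023, edgeR) and 9 other pathway genes in the PFC. So few libraries leave almost nothing to estimate the spread of a single gene once the block is fitted. These calls therefore rest largely on the spread shared over genes. With the 2 shared PFC numbers crossed, the fit (an alternative added after seeing the data) gave 3 members and 10 other genes. The block changed the sign of the log2FC of Tlr4 in the PFC (0.28; 0.29 crossed), of Tlr7 (-0.018), Tlr9 (-0.065) and Tlr13 (-0.0050) in the microglia, and of Tlr1 (-0.073), Tlr3 (-0.0074), Tlr8 (-0.011), Tlr9 (-0.18) and Myd88 (-0.17) in the co-cultures. With lane as a block, Tlr8 (-0.0090) and Myd88 (-0.0049) changed sign in the co-cultures. None of these members was called in either fit.

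When 1 library was left out, 10 uncalled log2FC, those of 7 members, crossed 0. It ran from -0.13 to 0.22 for Tlr3 and from -0.29 to 0.13 for Tlr4 in the PFC. In the microglia the ranges were -0.023 to 0.0024 for Tlr4, -0.017 to 0.011 for Tlr6, -0.0023 to 0.0099 for Tlr7 and -0.00069 to 0.064 for Tlr9. In the co-cultures they were -0.0095 to 0.055 for Tlr3, -0.011 to 0.14 for Tlr4, -0.078 to 0.085 for Tlr8 and -0.039 to 0.039 for Myd88.

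The median over the 10 members in each PFC library, relative to the reference, was 0.17 higher on the log2 scale in the treated mice with the myeloid genes and 0.44 higher with the homeostatic genes. Such medians can rest on different members in different libraries. Relative to the myeloid genes, Tlr3 (-0.27), Tlr4 (-0.39) and Myd88 (-0.13) were lower in the treated mice, and Tlr2 (0.34) and Tlr9 (0.23) were higher. Tlr1, Tlr6, Tlr7 and Tlr13 lay between -0.05 and 0.01, and the pseudocount sets the value of Tlr8. With the homeostatic genes, the level in sc-control turned direction between microglia and PFC for Tlr9 (3.10) and Myd88 (1.76). Tlr6 (3.39) turned too, but its sign with the myeloid genes is uncertain, as its PFC level is near the pseudocount. Between co-culture and microglia, Tlr2 (-1.03) and Tlr9 (-0.49) turned direction. Tlr4 (-1.64) and Tlr8 (-1.58) had no clear direction there with the myeloid genes. A change of reference shifts all members by the same amount. In the co-cultures the pseudocount partly sets the homeostatic reference. The numbers of members that differed in treatment effect between experiments were 0 with RLE factors and with lane as a block too. Depth limits Tlr8 (2 to 15 reads), Tlr6 (16 to 36 reads) and Tlr1 (26 to 57 reads) in the PFC, and Tlr4, Tlr6 and Tlr8 in the co-cultures (17 to 48 reads).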
